A study of Anas platyrhynchos with 16 samples.

Results

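The genes described here were listed for the glia that line the ventricles of the brain and fill its tissue: ezrin (EZR), musashi 1 (MSI1), vimentin (VIM), glial fibrillary acidic protein (GFAP), SOX2, SOX9, the glutamate transporters SLC1A2 and SLC1A3, and the water channel AQP4. They were picked by gene symbol from the deposited expression table, which holds 24263 genes, and 8 of the 9 were found. SOX9 was not analysed here. EZR and MSI1 were chosen because both were higher in every caged hypothalamus library, so that their housing difference in the hypothalamus is a description and carries no test. The other 6 genes found were chosen as markers of ventricular and parenchymal glia. As given below, EZR and MSI1 were higher in pituitary than in hypothalamus, and VIM passed between tissues in neither housing with all libraries. Glial is therefore the name of the list and does not assign the RNA to glia.

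RNA was sequenced from the hypothalamus, the brain region that controls hormone release, and from the pituitary gland below it, in Shanma ducks (Anas platyrhynchos) aged 113 days. At 110 days of age 15 ducks were moved into 3 cages of 100 × 45 × 50 cm and were given 16 h of light, and 15 ducks stayed in a system that joins floor and water, under natural light. The effects of cage and lighting therefore cannot be told apart. The groups are caged hypothalamus, floor-water hypothalamus, caged pituitary and floor-water pituitary, with 4 libraries each. The bird and cage behind a library are not given, and a p-value here reflects library-to-library spread alone, part of which may be technical.

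Tanycytes are elongated glia in the floor and walls of the third ventricle. Their processes reach the capillaries that supply the pituitary, and in birds and mammals they take part in the response to day length by converting thyroid hormone. Radial glia are the stem-like glia of the developing brain, and tanycytes keep many of their genes, VIM and SOX2 among them. Astrocytes carry GFAP filaments, clear glutamate from synapses through SLC1A2 and SLC1A3, and hold AQP4 in the endfeet that surround blood vessels.

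Several libraries carried transcripts of other tissue, and these values stand before the results they touch. Library totals were 38853215 to 67175356 counts. Relative to the pituitary mean, the median level of 11 pituitary endocrine markers was 4.53%, 0.101%, 6.61% and 20.7% in caged hypothalamus libraries 1 to 4, against 1.28%, 0.0558%, 0.218% and 0.4% in floor-water hypothalamus libraries. This value is called the pituitary share below. TTR, a transcript of the choroid plexus, reached 20520 FPKM (fragments scaled to transcript length and library size) in library 2 of the caged hypothalamus. Libraries 1, 3 and 4 held 8.61 to 662 FPKM, and the floor-water hypothalamus 17.3 to 109.8 FPKM. The median of 18 neuron and oligodendrocyte markers, relative to the hypothalamus mean, was 2.29%, 5.93%, 3.03% and 2.22% in caged pituitary libraries and 3.8%, 7.07%, 2.26% and 6.86% in floor-water pituitary libraries.

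**Figure D1:**
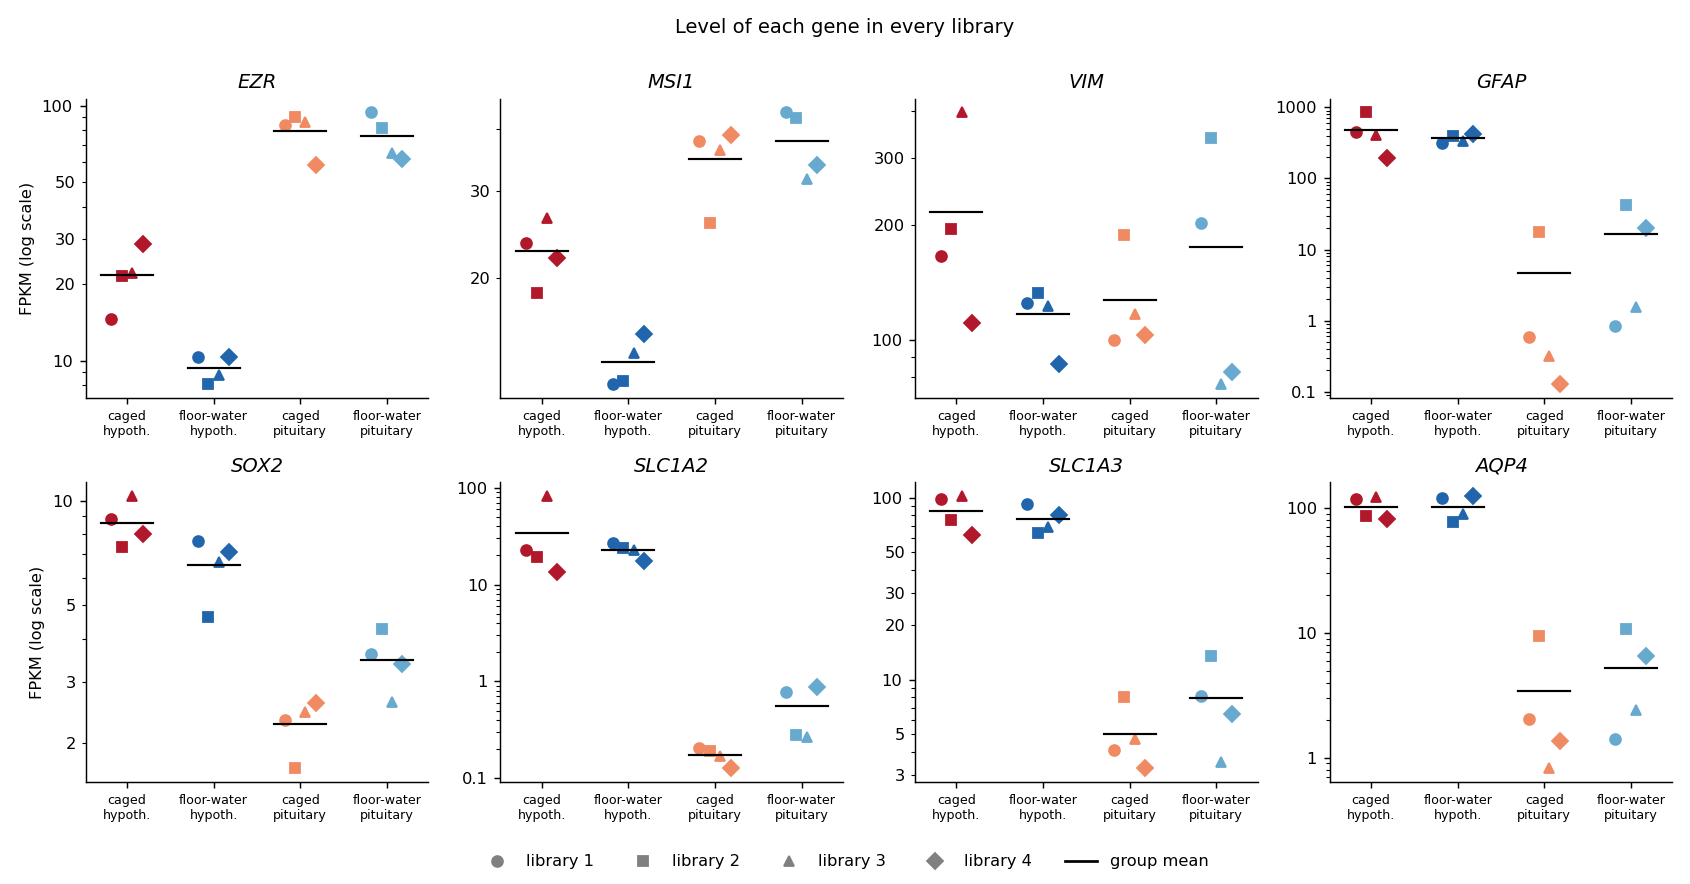
FPKM of the 8 genes (log axes) in each of the 16 libraries, with library numbers as symbols and group means as bars. EZR and MSI1 stand higher in pituitary than in hypothalamus, GFAP, SLC1A2, SLC1A3 and AQP4 far higher in hypothalamus, and VIM overlaps across all 4 groups.

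The first comparison asks whether housing altered these genes in the hypothalamus. EZR and MSI1, the pair chosen for this contrast, were higher in caged ducks, while none of the other 6 genes passed the test. EZR, which ties the cell membrane to cortical actin and fills the fine processes of glia, was at 14.6, 21.4, 22.0 and 28.7 FPKM in caged libraries 1 to 4, against 10.3, 8.09, 8.79 and 10.3 FPKM in floor-water libraries. The caged mean was 21.7 ± 5.75 FPKM and the floor-water mean 9.35 ± 1.09 FPKM (SD, n = 4 each), with a fitted log2 fold change of 1.17. The caged values spread more widely than the floor-water ones, with the lowest in library 1 and the highest in library 4.

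MSI1, an RNA-binding protein of neural stem cells that represses translation of its target messages, was at 23.5, 18.7, 26.5 and 22.0 FPKM in caged libraries, against 12.2, 12.4, 14.1 and 15.4 FPKM in floor-water libraries. The caged mean was 22.7 ± 3.22 FPKM and the floor-water mean 13.5 ± 1.51 FPKM (SD, n = 4 each), a log2 fold change of 0.69. The choice of the pair left a margin of 14.6 FPKM for the lowest caged library over 10.3 FPKM for the highest floor-water library in EZR. In MSI1 the corresponding values were 18.7 and 15.4 FPKM. Just outside the rule, SOX2 and VIM had 3 of 4 caged libraries above the highest floor-water library. Over all 15736 genes tested, 3.39% had every caged library above every floor-water library, and 2.3% had every caged library below.

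The pituitary share was higher in caged libraries 1, 3 and 4 than in every floor-water library, and EZR and MSI1 are themselves higher in the pituitary, as given further on. EZR was highest in caged library 4, which held the largest pituitary share, 20.7%. Caged library 2 had a share of 0.101%, lower than 3 of the 4 floor-water libraries, and stood at 21.4 FPKM of EZR and 18.7 FPKM of MSI1, but it was also the library with 20520 FPKM of TTR. With the log2 of the pituitary share as a covariate the log2 fold change of EZR was 1.06 and that of MSI1 0.60. That covariate entered on a log scale, not as the share itself. It was built from pituitary endocrine markers alone, and fibroblast, ependymal and choroid markers were not entered. It also went with housing in caged libraries 1, 3 and 4, so the covariate fit cannot separate share from housing. Without caged libraries 2 and 4 the log2 fold change was 0.90 for EZR and 0.82 for MSI1. Caged libraries 1 and 3, kept in that fit, had shares of 4.53% and 6.61%, above the highest floor-water share of 1.28%. Leaving out each of the 8 libraries in turn gave 1.0 to 1.32 for EZR and 0.63 to 0.77 for MSI1. Because the pair was chosen with every caged library higher, the direction in the left-out fits was fixed by the choice.

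**Figure D2:**
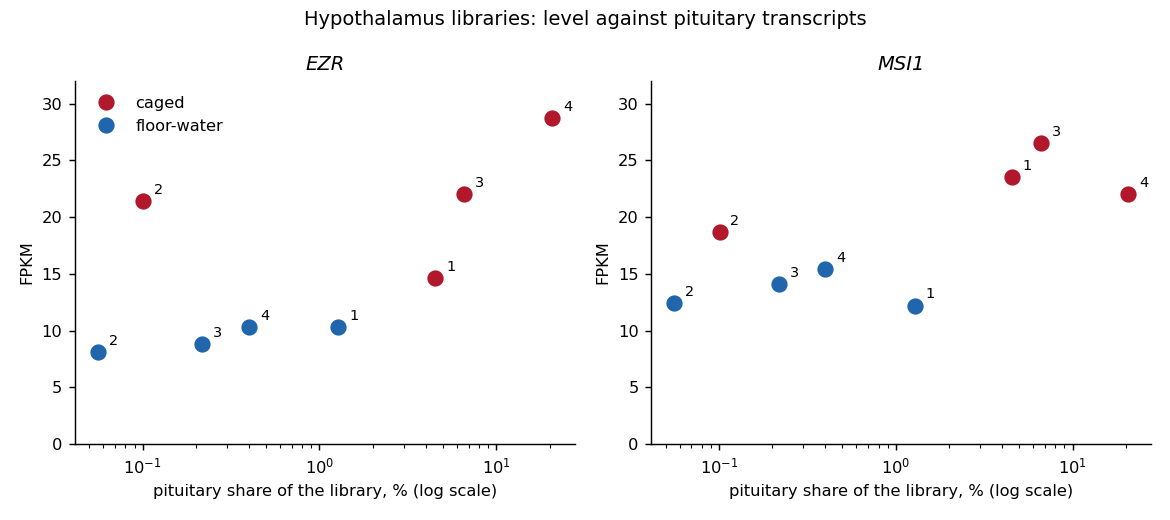
FPKM of EZR and MSI1 in the 8 hypothalamus libraries against the pituitary share of each library in percent (log axis), with library numbers beside the points. Caged library 2, at a share of 0.101%, lies at 21.4 FPKM for EZR and 18.7 FPKM for MSI1. The choice of the pair placed it above all floor-water libraries, and it held 20520 FPKM of TTR.

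VIM, the intermediate filament protein of radial glia and tanycytes, was at 166, 196, 396 and 111 FPKM in caged hypothalamus, against 125, 133, 123 and 86.4 FPKM in floor-water hypothalamus. Caged library 3 stood far above the rest and caged library 4 below 3 of the floor-water libraries. The log2 fold change was 0.84 ± 0.34 (SE, edgeR quasi-likelihood test, adjusted p = 0.499), and without caged library 3 it was 0.41.

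SOX2, a transcription factor that maintains neural stem cells, was at 8.85, 7.33, 10.3 and 8.03 FPKM in caged hypothalamus, against 7.65, 4.62, 6.67 and 7.09 FPKM in floor-water hypothalamus. The groups overlapped at caged library 2, and the log2 fold change was 0.36 ± 0.15 (SE, edgeR, adjusted p = 0.52). The deposited SOX2 entry joins 29 transcripts, of which 28 are non-coding and 1 is coding, so its level is not that of SOX2 messenger RNA alone.

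GFAP, the filament protein of astrocytes, was at 452, 852, 411 and 197 FPKM in caged hypothalamus, against 319, 396, 336 and 419.6 FPKM in floor-water hypothalamus. Both the highest and the lowest of the 8 values were caged, in libraries 2 and 4, and the log2 fold change was 0.34 ± 0.37 (SE, edgeR, adjusted p = 0.831). It was -0.12 without caged library 2.

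SLC1A2, the main glutamate transporter of forebrain astrocytes in mammals, was at 23.0, 19.2, 81.9 and 13.4 FPKM in caged hypothalamus, against 27.0, 23.7, 22.6 and 17.7 FPKM in floor-water hypothalamus. Caged library 3 alone exceeded the floor-water values. The log2 fold change of 0.53 ± 0.49 (SE, edgeR, adjusted p = 0.796) was -0.33 without that library.

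SLC1A3, a glutamate transporter of astrocytes and radial glia, was at 98.2, 75.5, 102 and 62.4 FPKM in caged hypothalamus, against 92, 63.8, 69.2 and 80.7 FPKM in floor-water hypothalamus (log2 fold change 0.10 ± 0.17 SE, edgeR adjusted p = 0.908). AQP4 was at 118, 86.1, 122 and 81.9 FPKM in caged hypothalamus, against 120.3, 77.1, 89.1 and 125 FPKM in floor-water hypothalamus (log2 fold change -0.06 ± 0.18 SE, edgeR adjusted p = 0.953). Both genes overlapped almost fully between the housings.

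By the edgeR test 0 of these 6 genes passed an adjusted p of 0.05, and the share of all 15736 genes that passed was 0.0%. At an unadjusted p of 0.05, 2 of the 6 passed, VIM and SOX2, as did 9.3% of all genes. DESeq2 called 0 of the 6 and 1.54% of all genes, and limma on log2(FPKM + 1) called 0 genes. With the log2 of the pituitary share as a covariate the log2 fold change was 0.93 for VIM, 0.18 for SOX2 and 0.82 for GFAP. It was 0.25 for SLC1A2, 0.02 for SLC1A3 and -0.21 for AQP4, and none of the 6 passed the test.

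**Figure D3:**
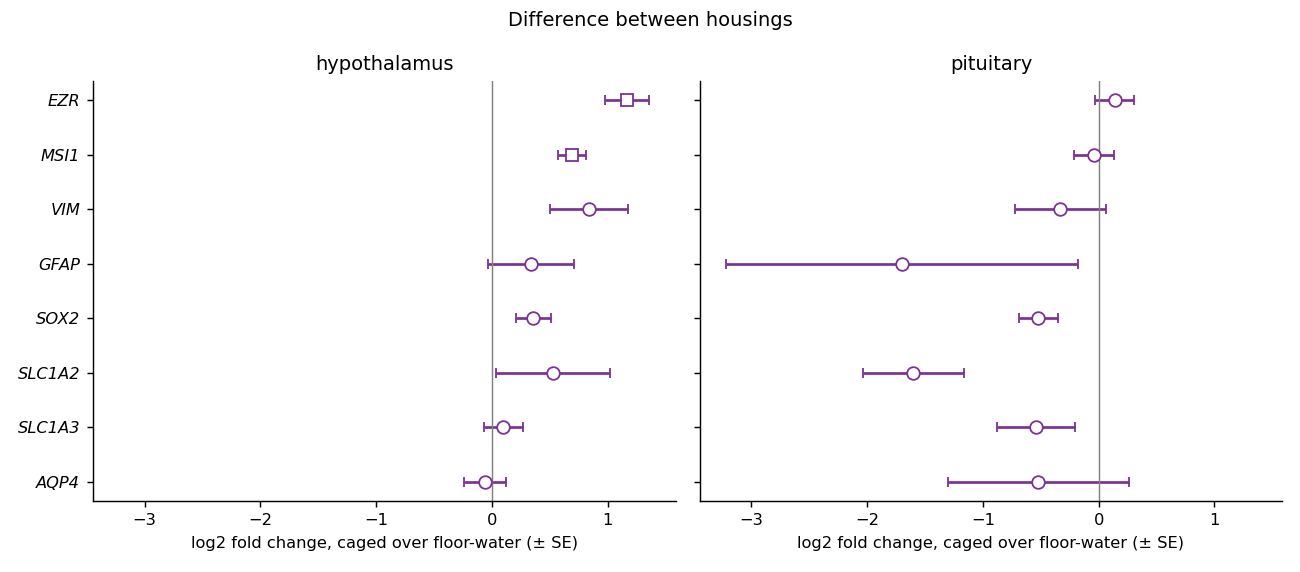
Log2 fold change, caged over floor-water, with its SE (edgeR) for the 8 genes in hypothalamus and pituitary, on one common axis. Open circles did not pass the test and open squares (EZR and MSI1 in hypothalamus) were not tested. The SE bars of these squares come from the values that chose the pair and give no test. In hypothalamus 7 of 8 values lie above 0, EZR and MSI1 by their choice, where 50.7% of all genes lie above 0. In pituitary 7 of 8 lie below 0, where 49.0% of all genes lie above 0.

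In the pituitary, where the choice of genes used no values, none of the 8 genes passed the test of housing, against 0.0% of 15582 genes. SLC1A2 and SOX2 were nonetheless lower in every caged library than in any floor-water library, a pattern met by 1.35% of all genes, while 1.3% had every caged library higher. SLC1A2 was at 0.204, 0.19, 0.171 and 0.128 FPKM in caged pituitary, against 0.783, 0.281, 0.268 and 0.885 FPKM in floor-water pituitary. These are low levels, resting on 77 to 153 counts per caged library and 217 to 631 counts per floor-water library. The log2 fold change was -1.60 ± 0.44 (SE, unadjusted p = 0.00447, edgeR adjusted p = 0.972). In the authors' deposited table SLC1A2 was marked as significant in pituitary, with a caged over floor-water fold of 0.313, a p of 0.00259 and a q of 0.306, and 1.41% of its genes were marked.

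SOX2 was at 2.34, 1.7, 2.47 and 2.62 FPKM in caged pituitary, against 3.62, 4.28, 2.63 and 3.38 FPKM in floor-water pituitary. The closest values were 2.62 FPKM in caged library 4 and 2.63 FPKM in floor-water library 3, and the log2 fold change was -0.52 ± 0.17 (SE, unadjusted p = 0.0141, edgeR adjusted p = 1.0). Of the 8 genes these 2 had an unadjusted p under 0.05, as had 4.3% of all genes. DESeq2 called 0 of the 8 and 0.245% of all genes, and limma called 0 genes.

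EZR and MSI1 showed no such separation in the pituitary. EZR was at 84.0, 89.8, 86.0 and 58.4 FPKM in caged pituitary, against 94.1, 81.7, 65.0 and 62.0 FPKM in floor-water pituitary, with a log2 fold change of 0.14 ± 0.17 (SE, edgeR adjusted p = 1.0). MSI1 was at 37.9, 25.9, 36.4 and 39 FPKM in caged pituitary, against 43.3, 42.1, 31.7 and 33.9 FPKM in floor-water pituitary, with a log2 fold change of -0.04 ± 0.17 (SE, edgeR adjusted p = 1.0). The housings overlapped widely for both.

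GFAP, AQP4, SLC1A3 and VIM varied strongly between libraries of the same pituitary group. GFAP was at 0.599, 17.4, 0.322 and 0.128 FPKM in caged pituitary, against 0.85, 42.6, 1.55 and 20.3 FPKM in floor-water pituitary (log2 fold change -1.70 ± 1.52 SE, edgeR adjusted p = 1.0). AQP4 was at 2.03, 9.48, 0.83 and 1.37 FPKM in caged pituitary, against 1.42, 10.8, 2.42 and 6.48 FPKM in floor-water pituitary (log2 fold change -0.52 ± 0.78 SE, edgeR adjusted p = 1.0). Both differences depended on single libraries. The log2 fold change of GFAP was -5.33 without caged library 2 and -0.72 without floor-water library 2, and that of AQP4 was -1.75 without caged library 2 and -0.03 without floor-water library 2. The high libraries, caged 2 and floor-water 2 and 4, were the 3 with the highest neuron and oligodendrocyte markers, at 5.93%, 7.07% and 6.86%. The part of brain tissue in these levels was not tested. SLC1A3 was at 4.1, 8.07, 4.71 and 3.27 FPKM in caged pituitary, against 8.1, 13.5, 3.51 and 6.45 FPKM in floor-water pituitary. VIM was at 99.9, 189, 117 and 103 FPKM in caged pituitary, against 203, 338, 76.5 and 82.2 FPKM in floor-water pituitary. Both were highest in floor-water library 2, and the groups overlapped. With the log2 of the brain marker level as a covariate, the log2 fold change was -1.46 for SLC1A2, -0.60 for SOX2 and -1.0 for GFAP. It was -0.16 for SLC1A3, -0.04 for AQP4, -0.01 for VIM, 0.13 for EZR and -0.19 for MSI1, and none of the 8 passed the test.

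**Figure D4:**
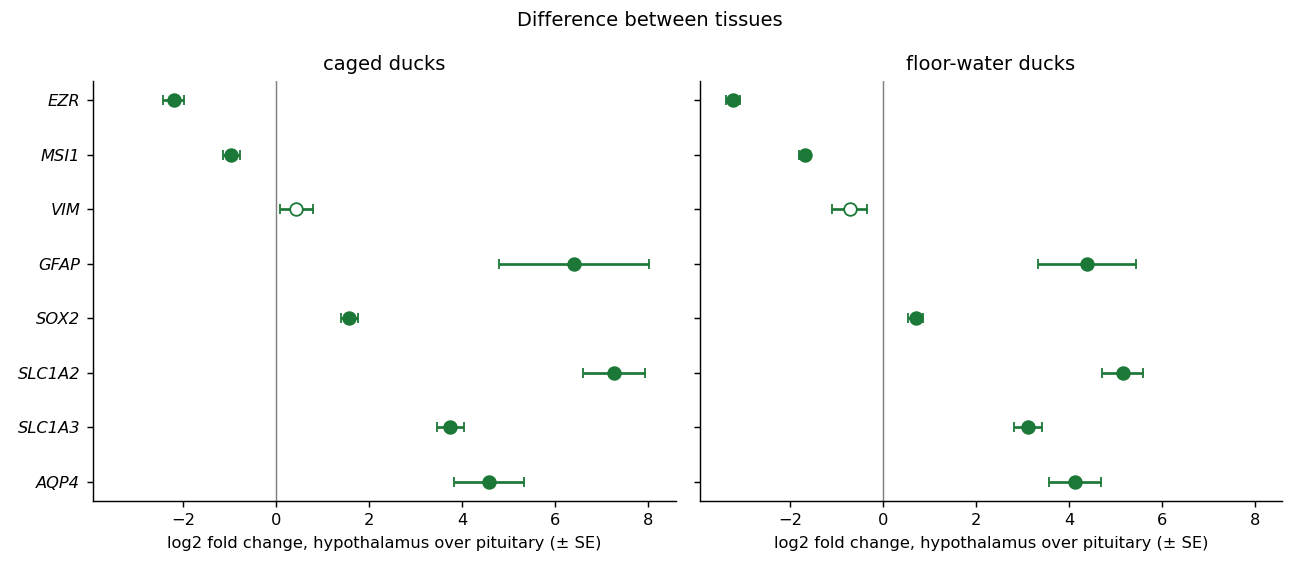
Log2 fold change, hypothalamus over pituitary, with its SE (edgeR) for the 8 genes in caged and floor-water ducks. Filled circles passed an adjusted p of 0.05; EZR and MSI1 lie below 0 and GFAP, SOX2, SLC1A2, SLC1A3 and AQP4 above 0 in both housings, and VIM passed in neither.

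The comparison of tissues asks where in the axis these genes are expressed. In bulk samples, fewer cells of a type and less RNA per cell cannot be told apart. In caged ducks 7 of the 8 genes differed between hypothalamus and pituitary, 5 higher and 2 lower in hypothalamus, where 54.1% of 15854 genes passed, 26.8% higher and 27.3% lower. In floor-water ducks the count was again 7 of 8, with 5 higher and 2 lower, against 56.3% of 15878 genes, 27.8% higher and 28.5% lower. Libraries did not overlap, with hypothalamus higher, in 27.8% of genes in caged and 27.7% in floor-water ducks, and with hypothalamus lower in 25.7% and 28.0%. The counts of members are to be read against these shares. They include EZR and MSI1, whose hypothalamus values were used to choose them.

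SLC1A2 averaged 34.4 ± 31.9 FPKM in caged hypothalamus and 0.173 ± 0.0332 FPKM in caged pituitary (SD, n = 4 each), a log2 fold change of 7.26 ± 0.66 (SE, edgeR adjusted p = 6.49e-05). In floor-water ducks it was at 22.7 ± 3.85 FPKM in hypothalamus and 0.554 ± 0.326 FPKM in pituitary, a log2 fold change of 5.15 ± 0.44 (SE, edgeR adjusted p = 1.77e-05). Without caged hypothalamus library 3 the caged value was 6.41. GFAP, at 478 ± 273 FPKM in caged hypothalamus and 4.62 ± 8.53 FPKM in caged pituitary, had a log2 fold change of 6.41 ± 1.61 (SE, edgeR adjusted p = 0.00859). Without caged pituitary library 2 it was 10.09, and with the library number as a replicate block it was 8.77, as the value of AQP4 below was 5.24. In floor-water ducks GFAP was at 368 ± 48.1 FPKM in hypothalamus and 16.3 ± 19.7 FPKM in pituitary (log2 fold change 4.39 ± 1.06 SE, edgeR adjusted p = 0.00628), and 7.92 without pituitary libraries 2 and 4. The lowest hypothalamus library exceeded the highest pituitary library for both genes in both housings.

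AQP4 averaged 102 ± 20.8 FPKM in caged hypothalamus and 3.43 ± 4.06 FPKM in caged pituitary, a log2 fold change of 4.58 ± 0.75 (SE, edgeR adjusted p = 0.00101). In floor-water ducks it averaged 103 ± 23.4 FPKM in hypothalamus and 5.27 ± 4.27 FPKM in pituitary, a log2 fold change of 4.12 ± 0.56 (SE, edgeR adjusted p = 0.000237). Without pituitary library 2 of the caged ducks the value was 5.85, and without libraries 2 and 4 of the floor-water ducks 5.41. SLC1A3 had log2 fold changes of 3.74 ± 0.29 in caged ducks and 3.12 ± 0.30 in floor-water ducks (SE, edgeR adjusted p = 3.61e-05 and 2.97e-05). The SOX2 entry had values of 1.57 ± 0.18 in caged and 0.70 ± 0.16 in floor-water ducks (SE, edgeR adjusted p = 0.000165 and 0.00411).

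EZR and MSI1 ran the other way. EZR averaged 21.7 ± 5.75 FPKM in caged hypothalamus and 79.5 ± 14.3 FPKM in caged pituitary, a log2 fold change of -2.21 ± 0.22 (SE, edgeR adjusted p = 8.84e-05), and 9.35 ± 1.09 FPKM in floor-water hypothalamus and 75.7 ± 15.0 FPKM in floor-water pituitary, a log2 fold change of -3.23 ± 0.15 (SE, edgeR adjusted p = 3.71e-06). MSI1 averaged 22.7 ± 3.22 FPKM in caged hypothalamus and 34.8 ± 6.06 FPKM in caged pituitary (log2 fold change -0.97 ± 0.18 SE, edgeR adjusted p = 0.00164), and 13.5 ± 1.51 FPKM in floor-water hypothalamus and 37.8 ± 5.8 FPKM in floor-water pituitary (log2 fold change -1.69 ± 0.12 SE, edgeR adjusted p = 1.05e-05). In FPKM caged hypothalamus library 3 (26.5) exceeded caged pituitary library 2 (25.9) for MSI1. Caged and floor-water pituitary could not be separated for either gene, and both lay above the hypothalamus groups in the mean. Neither gene was thus restricted to the hypothalamus. That caged hypothalamus lay above floor-water hypothalamus was fixed by the choice of the pair. The tissue contrasts use the same hypothalamus libraries, so the sizes and p-values of EZR and MSI1 there are not free of that choice. VIM did not pass in caged ducks (log2 fold change 0.43 ± 0.36 SE, edgeR adjusted p = 0.34) or in floor-water ducks (-0.72 ± 0.38 SE, adjusted p = 0.137). It passed without caged hypothalamus libraries 2 and 4 and caged pituitary library 2 (1.09, adjusted p = 0.0444), and without floor-water pituitary library 4 (-0.94, adjusted p = 0.0498).

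An interaction term fitted to the 16 libraries asked whether the housing difference itself varied with tissue, and it is positive where the caged over floor-water difference was larger in hypothalamus. None of the 6 genes tested passed, against 0.0% of 17010 genes. SOX2 had a value of 0.89 ± 0.23 (SE, unadjusted p = 0.00169, edgeR adjusted p = 0.32) and SLC1A2 2.12 ± 0.69 (SE, unadjusted p = 0.00723, edgeR adjusted p = 0.46). Without caged hypothalamus library 3 the value of SLC1A2 was 1.27, and with limma on log2(FPKM + 1) it was 0.61. The pituitary levels in it were low, from 0.128 to 0.885 FPKM. SOX2 and SLC1A2 had an unadjusted p under 0.05 by edgeR, as had 7.21% of all genes. DESeq2 called 0 of the 6 and 0.768% of all genes, and limma called 0 genes. The untested values of the chosen pair were 1.04 for EZR and 0.74 for MSI1.

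In each tissue a single library was the highest for many of these genes, and for many other genes too. Of the 8 genes, caged hypothalamus library 3 was the highest of the tissue's 8 libraries for 5 (MSI1, VIM, SOX2, SLC1A2 and SLC1A3). MSI1 had been chosen as higher in every caged hypothalamus library. In the pituitary, floor-water library 2 was the highest for 5 (VIM, GFAP, SOX2, SLC1A3 and AQP4). Among 16 measured tanycyte genes these libraries were the highest for 9 each. Over all genes tested, caged hypothalamus library 3 was the highest for 17.0%, after caged hypothalamus library 4 at 20.2%. Floor-water pituitary library 2 was the highest for 28.6%, the largest share of the 8 pituitary libraries. Floor-water pituitary library 2 was also the highest for 8 of 14 astrocyte genes, 6 of 8 microglia markers, 6 of 9 fibroblast markers, 5 of 10 endothelial markers and 5 of 10 neuron markers. Caged hypothalamus library 3 was the highest for 4 of 9 fibroblast markers, 1 of 14 astrocyte genes and 0 of 10 neuron markers. CRYM, a thyroid hormone-binding crystallin, was at 25.6, 53.5, 295 and 32.6 FPKM in caged hypothalamus, against 34.2, 15.1, 19.5 and 23.8 FPKM in floor-water hypothalamus. It was at 7.54, 25.9, 11.4 and 7.92 FPKM in caged pituitary, against 12.5, 113, 9.23 and 11.5 FPKM in floor-water pituitary. DIO3, which inactivates thyroid hormone, was at 0.268, 0.771, 10.1 and 0.824 FPKM in caged hypothalamus, against 0.29, 0.143, 0.194 and 0.691 FPKM in floor-water hypothalamus. Caged library 3 held the high value there. In the pituitary DIO3 was at 14.3, 12, 7.22 and 2.17 FPKM in caged ducks, against 4.53, 13.9, 2.66 and 2.95 FPKM in floor-water ducks, and the highest value was that of caged library 1. CRYM and DIO3 were chosen after their values were seen. How much of the ventricle floor each dissection held is not given, and its part in these levels was not tested.

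**Figure D5:**
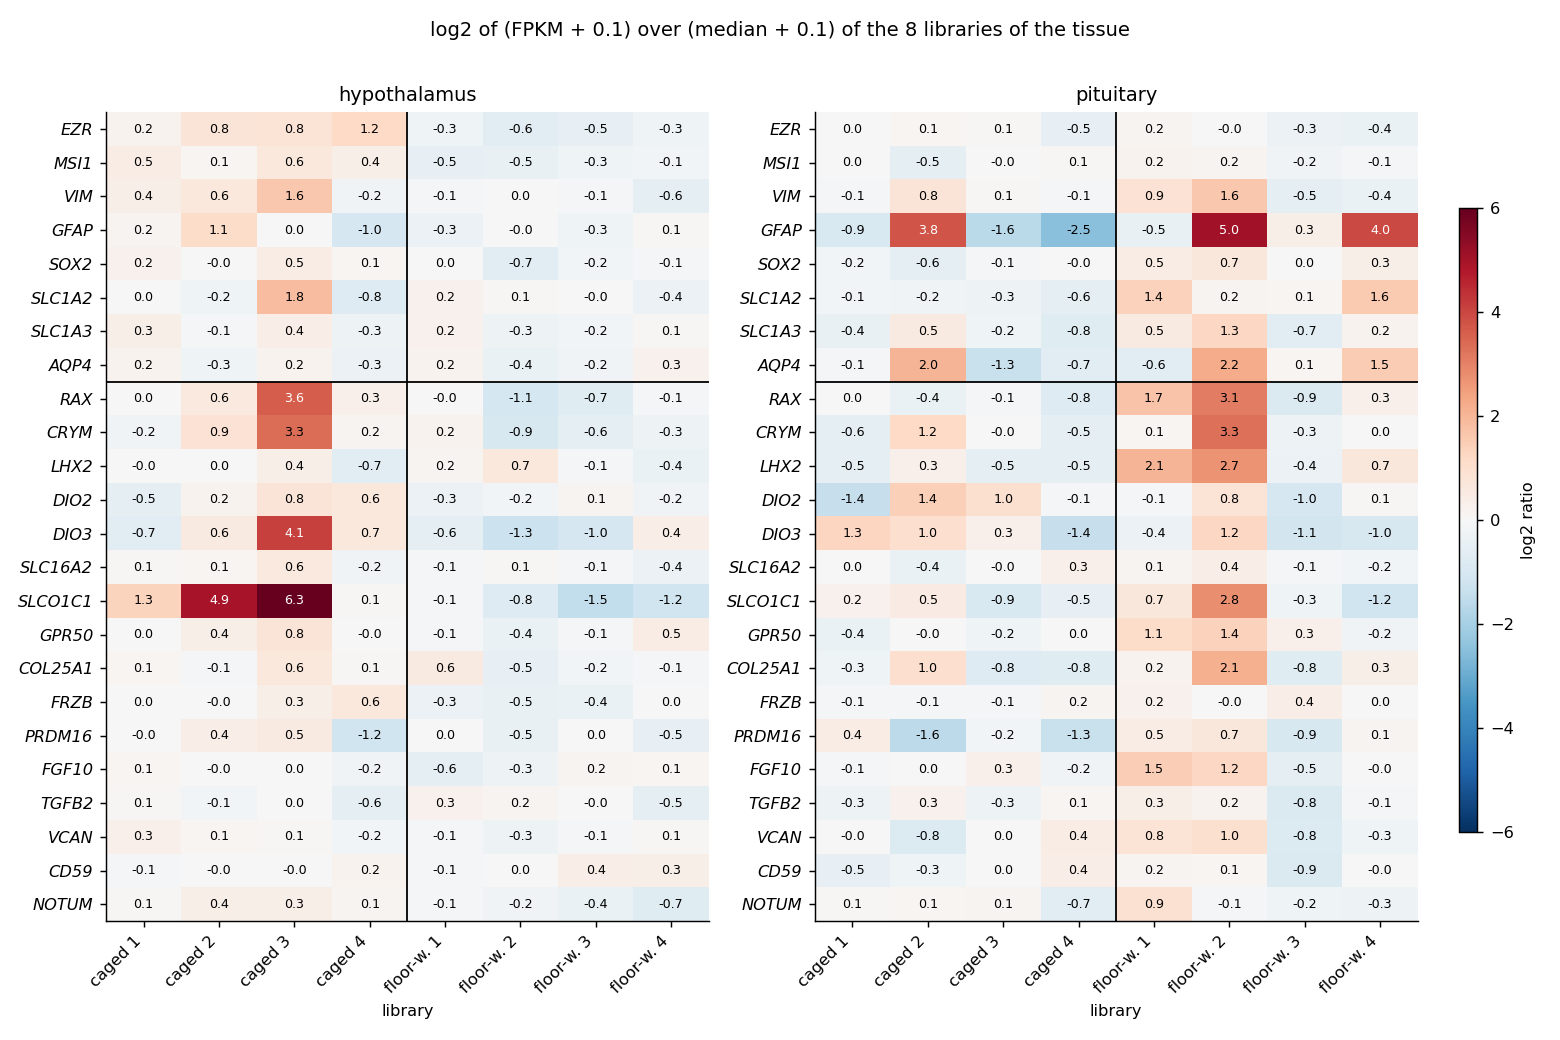
Levels of the 8 genes (above the line) and of the 16 measured tanycyte genes (below it) in each library, as log2 of FPKM plus 0.1 over the median plus 0.1 of the 8 libraries of the tissue. Caged hypothalamus library 3 and floor-water pituitary library 2 stand out for RAX, CRYM and SLCO1C1, and caged hypothalamus library 2 for SLCO1C1 too (4.94).

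The wider lists place these genes among others listed for glia or for related functions, as counts and medians beside all genes. In the hypothalamus 13 of 16 tanycyte genes had a log2 fold change above 0 with caging (median 0.38), as had 14 of 18 radial glia and neural stem cell genes (median 0.21), 4 of 14 astrocyte genes (median -0.08), 10 of 14 ezrin partners and actin linkers (median 0.07) and 4 of 11 filament and glutamate genes (median -0.03). Over all genes 50.7% lay above 0, with a median of 0.0. By edgeR 0 of the 73 genes on these lists passed, while 13 had an unadjusted p under 0.05, as had 9.3% of all genes. Limma called 0, and DESeq2 called 4 (MYO7A, SLCO1C1, NOTCH2 and GRM3) and 1.54% of all genes. Every caged library was higher for 4 of 16 tanycyte, 3 of 18 radial glia, 0 of 14 astrocyte and 1 of 14 ezrin list genes. Every caged library was lower for 1 of 11 filament and glutamate genes. Over all genes these shares were 3.39% and 2.3%. The list genes named next were taken from those without overlap, so their separation was fixed by that filter and is no support for EZR or MSI1.

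Of the tanycyte genes, SLCO1C1, a thyroid hormone transporter, was at 0.978, 13.2, 34.3 and 0.348 FPKM in caged hypothalamus, against 0.312, 0.148, 0.0517 and 0.0859 FPKM in floor-water hypothalamus. Its log2 fold change of 6.31 ± 1.43 (SE, edgeR adjusted p = 0.361) came with a spread from 0.348 to 34.3 FPKM among the caged libraries, 2 and 3 being high. RAX, the homeobox factor that marks tanycytes, was at 0.258, 0.428, 4.23 and 0.339 FPKM in caged hypothalamus, against 0.25, 0.0693, 0.112 and 0.224 FPKM in floor-water hypothalamus, so that all but library 3 were low. FRZB, a secreted Wnt inhibitor, was at 14.4, 14.0, 17.9 and 21.6 FPKM in caged hypothalamus, against 11, 10.2, 10.6 and 14.0 FPKM in floor-water hypothalamus. The difference was 0.52 ± 0.16 on the log2 scale (SE, edgeR adjusted p = 0.414).

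Among the radial glia genes NOTCH2, a receptor that keeps progenitors undifferentiated, was at 9.49, 10.2, 10.3 and 9.37 FPKM in caged hypothalamus, against 7.85, 7.66, 7.89 and 7.52 FPKM in floor-water hypothalamus. MSI2, the paralog of MSI1, was at 6.42, 6.5, 7.86 and 6.32 FPKM in caged hypothalamus, against 5.45, 4.76, 5.26 and 5.81 FPKM in floor-water hypothalamus. Both had a log2 fold change of 0.30, with an SE of 0.08 for NOTCH2 and 0.10 for MSI2 (edgeR adjusted p = 0.375 and 0.443). On the ezrin list MYO7A, an actin motor, was at 4.46, 5.38, 4.9 and 5.3 FPKM in caged hypothalamus, against 2.75, 3.06, 2.5 and 3.34 FPKM in floor-water hypothalamus (log2 fold change 0.73 ± 0.13 SE, edgeR adjusted p = 0.302). GRM3, a glutamate receptor of astrocytes and neurons, was lower in all caged libraries, at 32.4, 29.8, 34.3 and 31.6 FPKM, against 40.1, 37.9, 41.2 and 36.8 FPKM in floor-water libraries (log2 fold change -0.33 ± 0.08 SE, edgeR adjusted p = 0.361).

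None of the markers of other cells passed by edgeR in the same contrast. All 11 pituitary endocrine markers lay above 0 in caged hypothalamus (median 3.69), as did 11 of 13 ependymal and choroid plexus markers (median 1.02) and 8 of 9 fibroblast and meningeal markers (median 0.92). All 10 neuron markers and all 8 oligodendrocyte markers lay below 0, with medians of -0.28 and -0.21. Above 0 were 5 of 8 microglia markers (median 0.15), 7 of 10 endothelial markers (median 0.08) and 7 of 9 folliculostellate markers (median 0.98). Over all genes 50.7% lay above 0. An unadjusted p under 0.05 was met by 8 of 11 pituitary endocrine, 7 of 13 ependymal and choroid and 6 of 9 fibroblast markers. It was also met by 5 of 9 folliculostellate and 1 of 10 neuron markers, and by 9.3% of all genes. DESeq2 called 3 of 13 ependymal and choroid, 5 of 9 fibroblast and 1 of 11 pituitary endocrine markers, and 1.54% of all genes. Summed pituitary markers ran from 69.3 to 29825 FPKM in the caged hypothalamus and from 91.2 to 1958 FPKM in the floor-water one. The ependymal and choroid sum ran from 185 to 20739.9 FPKM in the caged hypothalamus and from 169.5 to 273 FPKM in the floor-water one, and caged library 2 was the highest for 6 of the 13 markers (FOXJ1, TTR, KCNJ13, CLIC6, SOSTDC1 and TPPP3). Of the defining choroid genes, CLIC6 was at 2.36 FPKM in that library and under 1 FPKM in the other 7, KCNJ13 was at 0.622 FPKM there and under 0.1 FPKM elsewhere, and CLDN2 was listed at 0.0001 FPKM in all 8. Fibroblast markers summed to 54.8, 64.9, 85.8 and 92.6 FPKM in caged hypothalamus libraries 1 to 4. The floor-water sums were 52.2, 35.8, 42.9 and 40.2 FPKM. EZR, but not MSI1, rose in the same order of caged libraries. The covariate given above held pituitary endocrine markers alone. The part of fibroblast, ependymal and other cells in the glial values was not tested beyond the left-out libraries given above.

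In the pituitary log2 fold changes lay above 0 for 4 of 16 tanycyte genes (median -0.48), 4 of 18 radial glia genes (median -0.18), 5 of 14 astrocyte genes (median -0.43), 6 of 14 ezrin partners and actin linkers (median -0.12) and 6 of 11 filament and glutamate genes (median 0.12), against 49.0% of all genes (median -0.01). By edgeR 0 of the 73 list genes passed, and 9 had an unadjusted p under 0.05, as had 4.3% of all genes. DESeq2 called 0 of the 73 and 0.245% of all genes, and limma called 0 genes. Most lists of other cells lay below 0 as well, with 1 of 10 neuron markers above 0 (median -0.19), 0 of 7 oligodendrocyte markers (median -0.50), 1 of 8 microglia markers (median -0.48), 1 of 10 endothelial markers (median -0.26), 1 of 9 fibroblast markers (median -0.31) and 5 of 13 ependymal and choroid markers (median -0.14). Pituitary endocrine markers were above 0 in 6 of 11 (median 0.07) and folliculostellate markers in 5 of 9 (median 0.06). The covariate given above held neuron and oligodendrocyte markers alone. The part of the other cells in the glial values was not tested.

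Between tissues, 12 of the 14 astrocyte genes were higher and 1 lower in hypothalamus in caged ducks (median 2.30), and the counts were 12 and 1 in floor-water ducks (median 2.15). GLUL, which makes glutamine from glutamate, had a log2 fold change of 1.92 ± 0.18 in caged and 1.52 ± 0.16 in floor-water ducks (SE, edgeR adjusted p = 7.07e-05 and 4.78e-05). Over all genes tested 26.8% were higher and 27.3% lower in caged ducks, and 27.8% and 28.5% in floor-water ducks. The counts of each list here are to be read against these shares. Of 16 tanycyte genes 6 were higher and 3 lower in caged ducks (median 1.10), and 4 higher and 7 lower in floor-water ducks (median -0.73). FRZB was lower in hypothalamus in both, with log2 fold changes of -1.90 ± 0.18 in caged and -2.56 ± 0.21 in floor-water ducks. Radial glia genes were 9 higher and 6 lower of 18 in caged ducks and 5 higher and 6 lower in floor-water ducks. FGFR2, a growth factor receptor, was higher in hypothalamus in both housings (2.32 ± 0.14 in caged and 2.54 ± 0.23 in floor-water ducks, log2), and PAX6, a factor of neural and pituitary progenitors, was lower (-1.95 ± 0.27 in caged and -2.20 ± 0.22 in floor-water ducks).

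Genes with the most similar profile over the 16 libraries were sought among 10672 genes, by the root mean square difference of centred log2(FPKM + 1) values. For EZR these were JPT2, BTG1 and ARL9, at 0.25 to 0.26 against a median of 1.39 for all candidates. MSI1 lay closest to B9D1, PTK7 and ZFP36L1, each at 0.20 against a median of 0.75. VIM lay closest to PRSS35, RAX and FBLN1 (0.38 to 0.42), against a median of 0.75 and an SD of 0.66 for VIM itself. RAX was on the tanycyte list and FBLN1 on the fibroblast and meningeal list. GFAP had GRIN1, GAP43 and VSNL1, SLC1A2 had GALNT17, CRHBP and CHL1, SLC1A3 had ADTRP, LGI1 and CDH13, and AQP4 had OLIG2, SLC6A11 and ENHO. GRIN1 was on the neuron list and OLIG2 on the oligodendrocyte list. SOX2 had HTR5A, CYBRD1 and NCKAP5. All of these profiles include the difference between tissues, and genes on one profile share library, depth and tissue makeup.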

How the data were processed

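RNA was sequenced from 16 libraries, 4 per tissue and housing; RNA integrity exceeded 7.0, per the labels. Tools listed in the submitters' processing notes are StringTie 1.3.4d, HISAT2, DESeq2 and cutadapt. Build and strand use are not given in the sources used here, so no positions are printed. Per the file headers the authors deposited whole-number counts per gene and FPKM values, and comparison tables with a fold, its log2 value, a p-value and a q-value. Of the gene IDs 17816 (73.4%) matched a reference annotation and 537 locus numbers gained a symbol.

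Housing and tissue contrasts were fitted within a pair of groups, and the interaction over all 16 libraries, by edgeR 4.0.16 in R 4.3.3 (quasi-likelihood test), TMM scaling, filterByExpr and Benjamini-Hochberg adjustment over all genes tested. The threshold was 0.05. The method was run on data simulated for the hypothalamus housing contrast only, with a common dispersion and no difference in other-tissue transcripts between libraries. That run does not show how the test performs on these libraries or in the other contrasts. The alternatives were limma 3.58.1 on log2(FPKM + 1) and log2(FPKM + 0.1), DESeq2 1.42.0, median ratio scaling, no filter, 1 fit of all libraries, a replicate block, other-tissue markers as a covariate, and libraries left out. Same-numbered libraries deviated together between tissues. Correlations were 0.124, 0.124, 0.128 and 0.173 in caged and 0.132, 0.083, 0.162 and 0.077 in floor-water ducks. In both housings each hypothalamus library correlated best with the pituitary library of its number. Each SE given with an edgeR log2 fold change is its absolute value over the square root of the F statistic of the test. The fits whose p-values are given here did not pair libraries. The replicate block by number was an alternative fit in every contrast.

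The genes, the lists and the libraries left out together were chosen with earlier results of these data known. All members are named. From each list, up to 4 called genes with the smallest p were eligible, or up to 3 whose libraries did not overlap. Depth left counting error small for all but the lowest genes.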

Additional observations from a re-analysis of the deposited data

Results flagged for a closer look

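A single library stood far from the other 3 of its group in 3 of 32 combinations of gene and group, by a gap test that chance meets in about 1 of 20. GFAP was at 17.4 FPKM in caged pituitary library 2, and AQP4 was at 9.48 FPKM in the same library. SLC1A2 was at 81.9 FPKM in caged hypothalamus library 3.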

How the results depend on the processing

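By edgeR no gene was called for housing in either tissue or for the interaction. DESeq2 called 242 genes in hypothalamus, 38 in pituitary and 130 in the interaction, and the cause was not tested. In hypothalamus limma with a pseudocount of 0.1 called 1, the fit of all 16 libraries called 1, and without caged libraries 2 and 4 it was 6. The fit of all libraries called 3 in pituitary. Leaving out each library gave 0 to 1 in hypothalamus, 0 to 2 in pituitary and 0 to 4 in the interaction. The glial genes called were 0, 0 and 0 for these contrasts and 7 and 7 for tissue in every alternative, except that VIM made it 8 where given above. EZR and MSI1 were not tested for housing in hypothalamus or for the interaction. Limma with a pseudocount of 1 moved the median of all genes between tissues to 0.13 in caged and 0.06 in floor-water ducks, against -0.07 in both by edgeR. Its calls split into 5821 higher and 2930 lower in caged ducks, against 4248 and 4323 by edgeR.

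Directions of uncalled genes turned as follows. AQP4 in hypothalamus was 0.16 without caged libraries 2 and 4 and ran from -0.16 to 0.04 with each library left out, GFAP from -0.12 to 0.60 and SLC1A2 from -0.33 to 0.79. In pituitary EZR was -0.04 and MSI1 0.04 without caged library 2 and floor-water libraries 2 and 4; with each library left out MSI1 ran from -0.11 to 0.09 and VIM from -0.56 to 0.12. VIM between tissues in caged ducks ran from -0.0041 to 0.71, and AQP4 in the interaction from -0.02 to 1.70. With the replicate block 8200 genes differed between tissues in caged ducks, against 8571 without it. No call of the 8 genes changed in any contrast that tested them. In floor-water ducks 8429 genes differed between tissues with the block, against 8935 without it. Same-numbered floor-water tissues had correlations of 0.077 to 0.162, and the fits with p-values given here paired neither housing.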
